A study of Mus musculus with 15 samples.

Results

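The epidermal connexins described here are 4 gap junction genes, *Gja1*, *Gjb2*, *Gjb6* and *Gjb5*, chosen by exact match of the gene symbol among the 21110 genes with deposited values. They were measured by RNA-Seq in 15 C57BL/6 mice, with 1 library from the ear of each mouse. At 2 weeks after birth there were 4 wild-type (WT) mice and 4 *Socs3* cKO mice, and at 10 weeks 3 and 4, respectively. *Socs3* cKO mice lack *Socs3*, which encodes a feedback inhibitor of cytokine signaling, in cells in which the keratin 5 promoter is or was active. The labels give no allele or Cre for WT mice and do not say whether the mice came from separate litters, so p-values measure the spread between these libraries. All values are FPKM, that is, fragments per kilobase of gene, scaled to the mapped reads of the library, so that levels of genes of different length can be compared.

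Connexins are membrane proteins that assemble into hemichannels. Hemichannels of neighbouring cells dock into gap junctions, through which ions and small metabolites pass from cell to cell. In skin, *Gja1* encodes Cx43, the connexin of basal and lower suprabasal keratinocytes that is also made by fibroblasts, hair follicle cells and vessel cells. *Gjb2* and *Gjb6* encode Cx26 and Cx30, which are found in hair follicles and are known to be scarce in resting epidermis between follicles and to increase in proliferating or wounded epidermis. *Gjb5* encodes a beta connexin of differentiating keratinocytes.

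The members lie at 3 loci of mm9. *Gja1* is on the forward strand at chr10:56097106-56110225 and is annotated with 2 exons. *Gjb2* (chr14:57717437-57723539, 2 exons) and *Gjb6* (chr14:57742140-57752448, 3 exons in its longest transcript) are neighbours on the reverse strand, 18601 bp apart. *Gjb5* lies on the reverse strand at chr4:127032053-127035425 and has 2 exons. None of the 4 overlaps another annotated gene, which matters here because the libraries did not keep the strand.

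The 250 bases before the annotated start of each member are shown because 3 members fell and 1 rose in the same mice at 2 weeks. Each is written from 5′ to 3′ on the strand of the gene. They are from chr10:56096856-56097105 for *Gja1*, chr14:57723540-57723789 for *Gjb2*, chr14:57752449-57752698 for *Gjb6* and chr4:127035426-127035675 for *Gjb5* of mm9, and capitals mark matches to the motifs searched.
Gja1: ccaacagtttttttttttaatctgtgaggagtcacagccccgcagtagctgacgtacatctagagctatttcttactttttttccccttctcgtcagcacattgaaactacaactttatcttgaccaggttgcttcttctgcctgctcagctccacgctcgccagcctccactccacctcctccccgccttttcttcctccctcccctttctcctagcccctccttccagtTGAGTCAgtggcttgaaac
Gjb2: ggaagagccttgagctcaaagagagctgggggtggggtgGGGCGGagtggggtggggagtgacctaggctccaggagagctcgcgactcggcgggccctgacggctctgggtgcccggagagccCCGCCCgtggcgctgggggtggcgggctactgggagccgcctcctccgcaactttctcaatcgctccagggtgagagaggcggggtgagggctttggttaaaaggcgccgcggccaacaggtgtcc
Gjb6: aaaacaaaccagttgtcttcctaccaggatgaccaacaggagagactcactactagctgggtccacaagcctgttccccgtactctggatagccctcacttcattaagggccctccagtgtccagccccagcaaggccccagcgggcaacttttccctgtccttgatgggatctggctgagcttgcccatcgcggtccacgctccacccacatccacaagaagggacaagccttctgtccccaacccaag
Gjb5: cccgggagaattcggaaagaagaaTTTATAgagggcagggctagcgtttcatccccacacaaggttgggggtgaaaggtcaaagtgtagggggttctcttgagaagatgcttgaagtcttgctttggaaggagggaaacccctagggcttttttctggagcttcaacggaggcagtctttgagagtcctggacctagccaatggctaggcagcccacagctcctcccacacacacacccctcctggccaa
The 4 words below were searched on both strands. The AP-1 word TGANTCA was found in *Gja1* alone, at position -19 from the start, and 6.03% of the 19564 promoters of this length held it. The GC box GGGCGG was found in *Gjb2* alone, at -211 and, on the other strand, at -126, against 43% of all promoters. The word TATAAA was found in *Gjb5* alone, at -226 on the other strand, against 11.5% of all promoters. The STAT word TTCNNNGAA, which 6.77% of promoters held, was in none of these windows, and *Gjb6* held none of the 4 words. These words do not overlap one another in the 4 windows, and a match describes the letters only. The G and C content was 69.2% in *Gjb2*, 56.8% in *Gjb6*, 53.6% in *Gjb5* and 50% in *Gja1*. The annotated start of *Gjb5* lies 17 bases from that of RefSeq.

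Several features of the libraries bear on these values. The estimated depth was 11100000 to 16400000 reads per library. The labels name keratinocytes as the source and the ear as the tissue, and genes of fibroblasts were abundant next to those of basal keratinocytes, with summed FPKM of 3858 to 14860 for 6 genes against 4567 to 7869 for 7 genes. The RNA was therefore treated as that of whole ear. *Socs3* itself was at 9.71, 10.2, 10.3 and 10.3 FPKM in WT mice at 2 weeks and at 1.25, 9.32, 12.6 and 3.51 in *Socs3* cKO, while at 10 weeks it was at 2.76, 4.81 and 2.02 in WT mice and at 36.5, 29.8, 47.7 and 32.4 in *Socs3* cKO. These values go against the label at 10 weeks and cover the whole gene rather than its deleted stretch, so that *Socs3* cKO and WT stand throughout for mice carrying those labels, also where a direction is given. The WT libraries at 10 weeks stood apart, with 1414 to 3176 genes listed at 0 against 4044 to 4423 in the other 12 libraries. *Socs3* cKO replicate 1 at 2 weeks correlated least with the other mice of its group, and 3 genes of connexin partners stood out as low in it. The sample codes in the labels, whose meaning is not given, ran in a separate range for each group. Any batch that follows these codes cannot be told apart from condition.

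In WT mice at 2 weeks *Gja1* was the most abundant of the 4 members. Its FPKM was 216, 206, 200 and 229 in the 4 mice. *Gjb2* followed at 81.9, 80.0, 76.2 and 97.9 FPKM, *Gjb5* was at 20.2, 19.8, 18.7 and 23.0, and *Gjb6* was at 10.3, 7.86, 8.10 and 10.1. The ranges of the 4 genes did not overlap in this group.

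*Socs3* cKO mice were compared with WT mice at 2 weeks to ask how connexin mRNA differed at the younger age. Of the 4 members, 3 were lower and 1 was higher in *Socs3* cKO, and in each of the 4 the mice of one genotype lay apart from those of the other. The share of all genes whose groups lay apart was not counted, in this or any other comparison. A gene was called at an adjusted p below 0.01 and a |log2(FC)| of 1 or more (limma, Benjamini-Hochberg adjusted over the 13524 genes tested), and by this rule 7.19% of all genes tested were lower and 7.24% were higher. The log2(FC) is that of FPKM + 0.1. Its median over all genes tested was -0.21, against -1.65 over the 4 members.

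*Gja1* was at 91.6, 68.6, 66.5 and 86.2 FPKM in *Socs3* cKO at 2 weeks. The highest of these lay far below the lowest WT mouse, at 200 FPKM, and the estimated reads behind each value were 3122 to 4401 against 7474 to 9568. *Gja1* fell by 1.46 on the log2 scale (SE 0.14, 95% CI -1.78 to -1.13, adjusted p = 0.00027), a fold of 2.74.

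*Gjb2* showed the widest gap of the members. It was at 2.50, 7.36, 3.76 and 4.40 FPKM in *Socs3* cKO, so that the highest value was far below the lowest WT mouse, at 76.2 FPKM. The log2(FC) was -4.29 (SE 0.29, 95% CI -4.95 to -3.62, adjusted p = 6.2e-05), a fold of 19.5. *Gjb6*, its neighbour on chromosome 14, was at 3.21, 2.13, 2.11 and 2.42 FPKM in *Socs3* cKO. It fell as well, with a log2(FC) of -1.85 (SE 0.19, adjusted p = 0.00032), which gave an adjusted p of 0.014 when all 4 groups were fitted together. *Gjb2* exceeded *Gjb6* by 7.96- to 10.2-fold in WT mice and by 0.78- to 3.46-fold in *Socs3* cKO, in which replicate 1 had more *Gjb6* than *Gjb2*.

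*Gjb5* moved in the opposite direction. It was at 64.8, 41.8, 62.2 and 68.8 FPKM in *Socs3* cKO, all above the highest WT mouse at 23.0 FPKM. *Gjb5* rose with a log2(FC) of 1.52 (SE 0.18, 95% CI 1.11 to 1.92, adjusted p = 0.00058), a fold of 2.86. *Gjb2* exceeded *Gjb5* by 4.05- to 4.26-fold in each WT mouse, while *Gjb5* exceeded *Gjb2* by 5.68- to 25.9-fold in each *Socs3* cKO mouse. With each mouse left out in turn, all 4 members kept their direction and their call at 2 weeks.

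**Figure D1:**
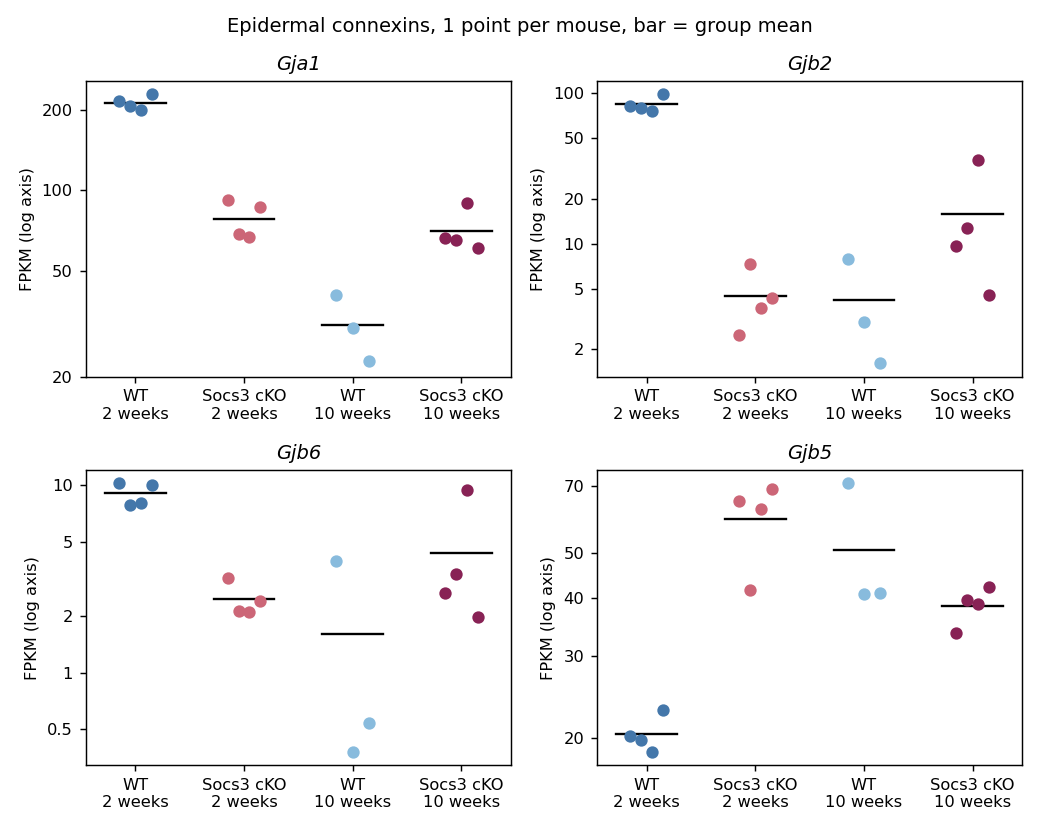
FPKM (log axis) of each member in each of the 15 mice by genotype and age, with 1 point per mouse and a bar at the group mean. At 2 weeks the *Socs3* cKO mice lay below every WT mouse for *Gja1*, *Gjb2* and *Gjb6* and above every one for *Gjb5*, and at 10 weeks only *Gja1* kept the genotypes apart.

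The same comparison at 10 weeks gave a different pattern. Of the 4 members, 1 was called, *Gja1*, and it was higher in *Socs3* cKO, where 12.5% of the 13105 genes tested were called higher and 2.43% lower. The median log2(FC) was 0.31 over all genes tested and 1.48 over the 4 members. *Gja1* was at 40.3, 30.4 and 22.9 FPKM in WT mice and at 66.4, 64.8, 89.2 and 61.0 in *Socs3* cKO, so that the groups did not overlap. It rose with a log2(FC) of 1.19 (SE 0.22, 95% CI 0.70 to 1.69, adjusted p = 0.0037). This call rested on the scaling, the filter and 1 mouse. The log2(FC) was 0.93 with median-of-ratios scaling, 0.99 with quantile normalization, 0.62 with the length and GC trend taken out and 0.99 (adjusted p = 0.016) without WT replicate 3, and without the expression filter its adjusted p was 0.016.

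*Gjb2* at 10 weeks was at 8.0, 3.06 and 1.62 FPKM in WT mice and at 9.70, 12.8, 36.0 and 4.55 in *Socs3* cKO. In *Socs3* cKO 3 of the 4 mice were above every WT mouse, and replicate 4 lay within their range. The log2(FC) of 1.78 (SE 0.67, 95% CI 0.28 to 3.27) was not called, at an adjusted p of 0.06. *Gjb6* had 3.93, 0.377 and 0.537 FPKM in WT mice and 2.67, 3.36, 9.45 and 1.99 in *Socs3* cKO, and the low values of WT replicates 2 and 3 rest on an estimated 9 and 14 reads. WT replicate 1 exceeded 3 of the 4 *Socs3* cKO mice, and the log2(FC) of 1.80 (95% CI 0.16 to 3.44, adjusted p = 0.078) was not called. *Gjb5* was at 70.8, 40.8 and 41.1 FPKM against 33.6, 39.6, 38.9 and 42.2. Its log2(FC) was -0.35 (95% CI -0.84 to 0.13, adjusted p = 0.22), and the groups overlapped.

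*Socs3* cKO replicate 3 at 10 weeks had the highest *Gja1*, *Gjb2* and *Gjb6* of its group. Its *Gjb2* was at 36.0 FPKM, against 12.8 in the next mouse, and its *Gjb6* at 9.45 against 3.36. The same mouse had a summed FPKM of 2570 for the stress keratins *Krt6a*, *Krt6b*, *Krt16* and *Krt17*, against 641 to 683 in the other 3. In WT mice at 2 weeks this sum was 1364 to 1509, so that it does not mark activated epidermis alone. *Gjb5* did not stand out in it, at 38.9 FPKM. Without this mouse the log2(FC) of *Gjb2* was 1.25 (adjusted p = 0.11) and that of *Gjb6* was 1.34 (adjusted p = 0.17). WT replicate 1, which had the highest *Gjb2* and *Gjb6* of its group, bore on them in the other direction. Without it the log2(FC) was 2.38 for *Gjb2* (adjusted p = 0.033) and 2.75 for *Gjb6* (adjusted p = 0.011), and over each mouse left out the values ran from 1.25 to 2.38 and from 1.21 to 2.75, with no call.

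All 4 members differed in their genotype effect between the ages. The interaction, which is the log2(FC) at 10 weeks less that at 2 weeks, was called at an adjusted p below 0.01 for 18.5% of the 13937 genes tested in the higher direction and for 7.05% in the lower direction. Its median was 0.55 over all genes tested and 3.15 over the 4 members. It was 2.65 for *Gja1* (SE 0.27, adjusted p = 1.9e-05), 6.06 for *Gjb2* (SE 0.80, adjusted p = 0.00013) and 3.65 for *Gjb6* (SE 0.83, adjusted p = 0.0037), and -1.87 for *Gjb5* (SE 0.29, adjusted p = 0.00039). The interaction of *Gjb6* had an adjusted p of 0.015 with quantile normalization and of 0.014 without WT replicate 3 at 10 weeks. Without WT replicate 1 at 10 weeks the interaction was 6.66 for *Gjb2* and 4.6 for *Gjb6*, and both were called.

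The change with age was then taken within each genotype. These comparisons share their mice with those above, so their values are given side by side and are no separate evidence. In WT mice, *Gja1* fell by 2.80 on the log2 scale from 2 to 10 weeks (SE 0.20, adjusted p = 2.7e-07), *Gjb2* fell by 4.57 (SE 0.59, adjusted p = 4.4e-05) and *Gjb6* fell by 3.09 (SE 0.61, adjusted p = 0.001). With each mouse left out these calls were kept, and the value of *Gjb2* ran from -5.17 without WT replicate 1 at 10 weeks to -4.05 without replicate 3, and that of *Gjb6* from -4.05 without replicate 1 to -2.51 without replicate 2. *Gjb5* rose by 1.27 (SE 0.21, adjusted p = 0.00033). By the same rule 19.4% of all genes tested were called lower and 6.18% higher at 10 weeks in WT mice. For each of the 4 members the WT mice at 10 weeks did not overlap with those at 2 weeks, and the share of all genes without such overlap was not counted.

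In *Socs3* cKO none of the members was called with age, where 2.01% of genes were called higher and 1.53% lower. At an unadjusted p below 0.05, 2 of them, *Gjb2* and *Gjb5*, would pass. The log2(FC) was -0.16 for *Gja1* (95% CI -0.55 to 0.23, adjusted p = 0.58), 1.5 for *Gjb2* (0.33 to 2.66, adjusted p = 0.098), 0.56 for *Gjb6* (-0.64 to 1.76, adjusted p = 0.52) and -0.60 for *Gjb5* (-1.02 to -0.18, adjusted p = 0.068). The interval of *Gja1* is narrow enough to leave out a change of 2-fold in either direction, whereas those of *Gjb2*, *Gjb6* and, by a small margin, *Gjb5* are not.

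**Figure D2:**
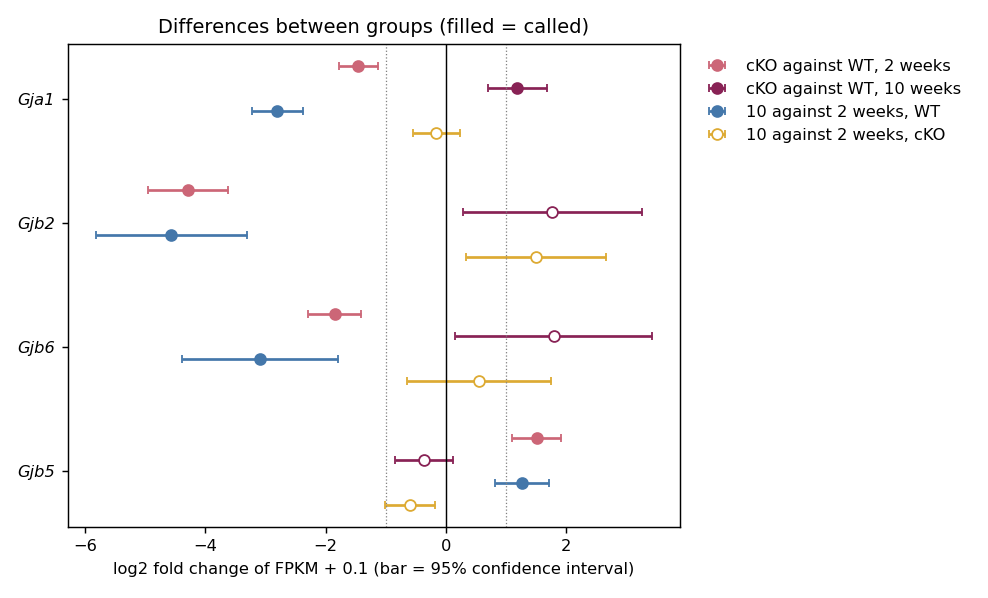
Log2 fold change of FPKM + 0.1 (x axis) of the members in the 4 comparisons, with 95% confidence intervals; filled points were called and dotted lines mark a log2(FC) of -1 and 1. For *Gjb2* the values were -4.29 at 2 weeks and 1.78 at 10 weeks for genotype, and -4.57 in WT mice and 1.5 in *Socs3* cKO for age.

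The make-up of the mRNA of the 4 genes shifted with these changes. At 2 weeks their summed FPKM was 303.4 to 359.6 in WT mice and 119.9 to 162.0 in *Socs3* cKO, and at 10 weeks it was 66.2 to 123.1 and 109.7 to 173.6, respectively. *Gja1* and *Gjb2* together made up 90.7% to 91.2% of the sum in each WT mouse at 2 weeks. They made up 52.2% to 63.4% in the younger *Socs3* cKO mice, and at 10 weeks 37.0% to 44.8% in WT mice and 59.7% to 72.2% in *Socs3* cKO. The group with the highest share, WT mice at 2 weeks, did not overlap with any other.

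*Gjb5* had a larger share in every other group. Its share was 6.25% ± 0.12 (SD, n = 4) in WT mice and 40.9% ± 4.8 in *Socs3* cKO at 2 weeks, and 58.1% ± 3.8 (n = 3) in WT mice and 30.9% ± 6.7 (n = 4) in *Socs3* cKO at 10 weeks. *Gjb2* alone held 24.9% to 27.2% in WT mice at 2 weeks and 1.54% to 6.14% in *Socs3* cKO, while at 10 weeks its share was 2.45% to 6.50% and 4.15% to 20.8%. *Gjb6* held at most 5.45% in any mouse.

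**Figure D3:**
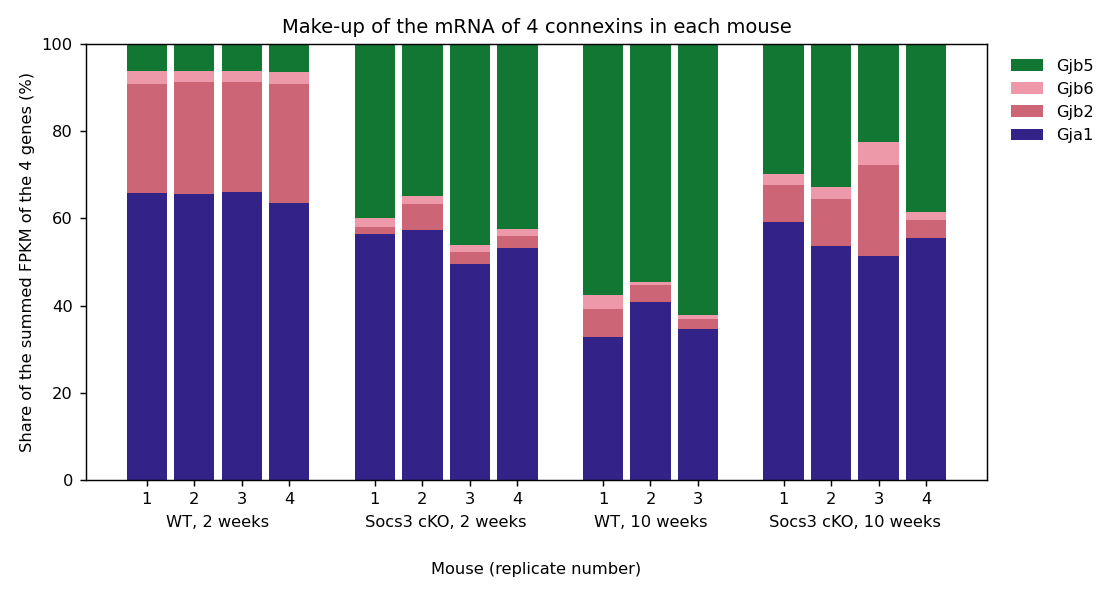
Share of the summed FPKM of the 4 members (y axis, %) held by each of them, with 1 stacked bar per mouse. *Gja1* and *Gjb2* held 90.7% to 91.2% in the 4 WT mice at 2 weeks and at most 72.2% in any other mouse.

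The order of levels changed accordingly. In *Socs3* cKO at 2 weeks *Gja1* and *Gjb5* had overlapping ranges, and *Gjb2* and *Gjb6*, which overlapped with each other, lay below them. *Gjb5* had the highest mean in WT mice at 10 weeks, 50.9 ± 17.2 FPKM, and its range lay just above that of *Gja1*, at 31.2 ± 8.7. In *Socs3* cKO at 10 weeks *Gja1* was again first, at 70.3 ± 12.8 FPKM, above the range of *Gjb5*, while *Gjb5* overlapped with *Gjb2* and *Gjb2* with *Gjb6*.

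*Gja3*, which encodes a lens connexin and lies near *Gjb2* and *Gjb6* at chr14:57654445-57676867, was at 2.39 to 2.72 FPKM in WT mice at 2 weeks. It was at 0.200 to 0.395 FPKM in *Socs3* cKO. *Gja3* passed the filter through the WT mice alone and could be called only as lower. Its log2(FC) was -2.80 (SE 0.20, adjusted p = 7.5e-05), and values below 1 FPKM rest on an estimated 1 to 9 reads. At 10 weeks it was at most 0.324 FPKM in any mouse and was not tested.

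Of 12 other connexins described, 6 were tested at 2 weeks, and 3 of them were called lower and none higher (limma). Of all genes tested, 7.19% were called lower and 7.24% higher. At an unadjusted p below 0.05, 5 were lower and 0 higher, a threshold at which all genes were not counted. *Gja3* and *Gja5* reached 1 FPKM in WT mice alone at this age, so that they could appear only as lower. Besides *Gja3* those called were *Gjc1*, at 9.44 to 10.9 FPKM in WT mice and 3.83 to 4.93 in *Socs3* cKO (log2(FC) -1.26, adjusted p = 0.00049), and the endothelial *Gja4*, at 7.77 to 9.07 and 2.27 to 4.89 FPKM (log2(FC) -1.14, adjusted p = 0.0075). The call of *Gja4* was lost in 13 of 19 alternatives, 7 of them with 1 mouse left out, and that of *Gjc1* in 1, quantile normalization. The endothelial *Gja5* was at 1.21 to 1.56 against 0.412 to 0.936 FPKM, *Gjc3* at 4.35 to 4.92 against 1.24 to 4.14 and *Gjd3* at 0.904 to 1.85 against 0.212 to 1.29, and none of these was called.

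At 10 weeks 4 of these 12 were tested, and *Gjc3* and *Gje1* were called lower, as were 2.43% of all genes tested. *Gjc3*, a connexin of Schwann cells and other glia, was at 2.92 to 5.65 FPKM in WT mice and at 0.905 to 2.03 in *Socs3* cKO (log2(FC) -1.41, adjusted p = 0.0092), and this call was lost with any 1 mouse left out. *Gje1* was at 2.07 to 2.37 FPKM in the 3 WT mice and at 0.463 to 0.741 in *Socs3* cKO (log2(FC) -1.73, adjusted p = 0.002). It passed the filter through the WT mice alone, so that it could be called only as lower in *Socs3* cKO, and its call was lost with a pseudocount of 1 (-0.99) and with the replicate number as a block (-1.64, adjusted p = 0.0103). These WT libraries are those that listed fewer genes at 0. *Gja10* was at 0.140 to 0.231 FPKM in them and at most 0.0453 in any other mouse. The part of this feature in the *Gje1* values was not tested. *Gja4* (3.12 to 3.84 against 2.65 to 3.13 FPKM) and *Gjc1* (1.91 to 3.15 against 3.90 to 6.52 FPKM) were not called. The interaction was called for 2 of 7, *Gja3* (3.38) and *Gjc1* (2.23), where 18.5% of all genes tested were called higher. *Gja3* reached 1 FPKM in WT mice at 2 weeks alone, so that its interaction could be called only as higher.

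With age in WT mice, 4 of 7 other connexins were called lower and 1 higher. Of all genes tested, 19.4% were called lower and 6.18% higher. The fall was 3.97 for *Gja3*, 2.02 for *Gjc1*, 1.22 for *Gja4* and 1.21 for *Gja5* on the log2 scale, with adjusted p of 3.9e-07, 6.3e-06, 0.00062 and 0.0062, and the call of *Gja5* was lost in 12 of 26 alternatives and that of *Gja4* in 3. *Gja3* and *Gja5* reached 1 FPKM in WT mice at 2 weeks alone, so that they could be called only as falling. *Gje1* rose by 1.84 (adjusted p = 0.00023), from 0.398 to 0.599 FPKM at 2 weeks to 2.07 to 2.37, and it likewise passed through the group in which it was high. Its call was lost with the length and GC trend taken out (1.22, adjusted p = 0.041). In *Socs3* cKO *Gja5* was called lower with age (log2(FC) -1.35, adjusted p = 0.0095), a call lost in 17 of 25 alternatives, and none was called higher, with 1 of 7, *Gje1*, higher at an unadjusted p below 0.05 (limma). Of all genes tested, 1.53% were called lower and 2.01% higher with age in *Socs3* cKO. *Gja6*, *Gja10*, *Gjb1*, *Gjd2* and *Gjd4* passed the filter in no comparison, and the highest FPKM among them was 1.27, for *Gjb1*.

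Pannexins form channels of a like topology that open to the outside of the cell. *Panx3* was at 4.26, 4.79, 4.59 and 4.30 FPKM in WT mice at 2 weeks and at 26.8, 16.9, 14.8 and 21.4 in *Socs3* cKO, so that it rose beside *Gjb5* (log2(FC) 2.09, SE 0.20, adjusted p = 0.00022). It was at 9.0 to 13.6 FPKM in WT mice and 16.1 to 21.2 in *Socs3* cKO at 10 weeks, which was not called. With age it rose in WT mice (log2(FC) 1.33, adjusted p = 0.00019), and its interaction was -1.39. *Panx1* was at 3.66 to 13.8 FPKM over all mice and had an unadjusted p above 0.05 in every comparison, and *Panx2* was at most 0.176 FPKM and was not tested.

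**Figure D4:**
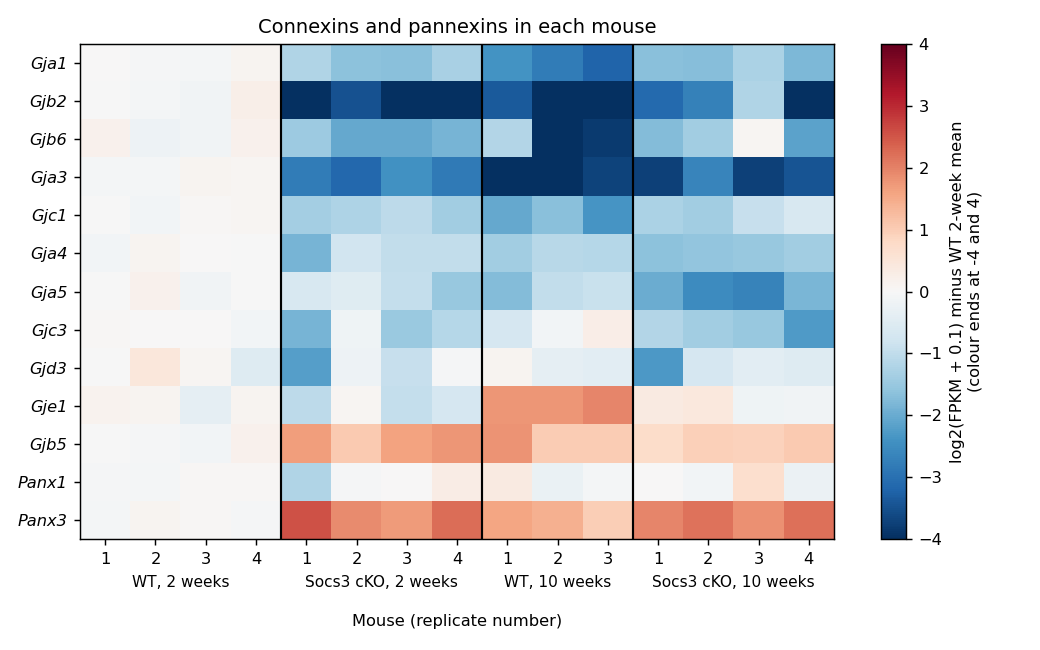
Log2(FPKM + 0.1) of 11 connexins and 2 pannexins in each mouse, as the difference from the mean of WT mice at 2 weeks (blue lower, red higher, colours ending at -4 and 4). *Gja1*, *Gjb2*, *Gja3*, *Gja4*, *Gja5* and *Gjc1* were below that mean in every mouse of the other 3 groups, *Gjb6* in all but *Socs3* cKO replicate 3 at 10 weeks, while *Gjb5* and *Panx3* were above it in all of them.

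A list of 11 genes that bind, anchor or modify connexins was counted next. It holds the scaffold protein *Tjp1*, the cadherin and catenin genes of the adherens junction, kinases that phosphorylate Cx43 and the ubiquitin ligases *Nedd4* and *Smurf2*. At 2 weeks 0 of 11 were called by limma, with 5 lower and 1 higher at an unadjusted p below 0.05. Without *Socs3* cKO replicate 1 there was 1 call, and without replicate 2 there were 2. At 10 weeks 12.5% of all genes tested were called higher, and the median log2(FC) of all genes tested was 0.31. Of the 11 listed, 3 were called at this age, all higher, with a median log2(FC) of 0.81 over the 11. These were *Cdh1*, which encodes E-cadherin (2.16, adjusted p = 0.0089), *Nedd4* (1.52, adjusted p = 0.0021) and *Tjp1* (1.2, adjusted p = 0.0036). Without WT replicate 1 or 3, without the expression filter and with the length and GC trend taken out, none of the 11 was called at 10 weeks, and 1 was called without *Socs3* cKO replicate 1, 2 or 3. The interaction was called for 6 of 11, all higher, where 18.5% of all genes tested were called higher and their median was 0.55. In WT mice 4 of 11 were called lower with age, where 19.4% of all genes tested were called lower and their median was -0.44, and in *Socs3* cKO none was called by limma, with 1 higher and 1 lower at an unadjusted p below 0.05.

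Genes of the hair follicle fell at 2 weeks in the mice in which *Gja1*, *Gjb2* and *Gjb6* fell and *Gjb5* rose. The 7 genes of hair shaft and matrix measured, such as *Krt31* and *Msx2*, summed to 445 to 739.7 FPKM in WT mice and 4.87 to 7.91 in *Socs3* cKO of 2 weeks, and all 7 were called lower. Those of the inner root sheath, such as *Krt25* and *Tchh*, summed to 2230 to 3300 against 7.03 to 64.2 FPKM, and all 6 were called lower. *Krt31*, *Krt34*, *Krt81*, *Krt83*, *Krt86* and *Krt73* passed the filter through the WT mice alone, so that they could be called only as lower. Of all genes tested at 2 weeks, 7.19% were called lower. At 10 weeks the hair shaft list was at 7.66 to 8.24 FPKM in WT mice and at 3.41 to 10.7 in *Socs3* cKO, and the inner root sheath list at 3.67 to 5.07 and 3.88 to 75.5. Of each list 2 genes passed the filter at this age, and none was called. Neither list had a gene at 0 in every mouse of a group. In bulk RNA, fewer cells of a type and less RNA per cell cannot be told apart, and the part of these lists in the connexin values was not tested.

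Among the 11 mice with little hair shaft mRNA, *Gjb2* ranged from 1.62 to 36.0 FPKM and *Gja1* from 22.9 to 91.6 FPKM. *Socs3* cKO replicates 3 and 4 at 10 weeks had hair shaft sums of 3.414 and 3.445 FPKM. Most of these sums was *Msx2* (2.47 and 1.59) and *Hoxc13* (0.920 and 1.39), with little of the hair keratins. Their inner root sheath sums differed more, at 3.875 and 8.738 FPKM. In these replicates *Gjb2* was the highest and the lowest of that group, at 36.0 and 4.55 FPKM, and the relation was not tested. The stress keratins summed at 2 weeks to 1364 to 1509 FPKM in WT mice against 783.8 to 1119 in *Socs3* cKO, and at 10 weeks to 237 to 394.4 against 641 to 2570. These sums had the direction of *Gja1* between genotypes at both ages, although *Krt16* was higher in *Socs3* cKO at 2 weeks (log2(FC) 0.67, not called). Of these 4 keratins 2 were called lower at 2 weeks and 2 higher at 10 weeks, as were 7.19% and 12.5% of all genes tested.

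**Figure D5:**
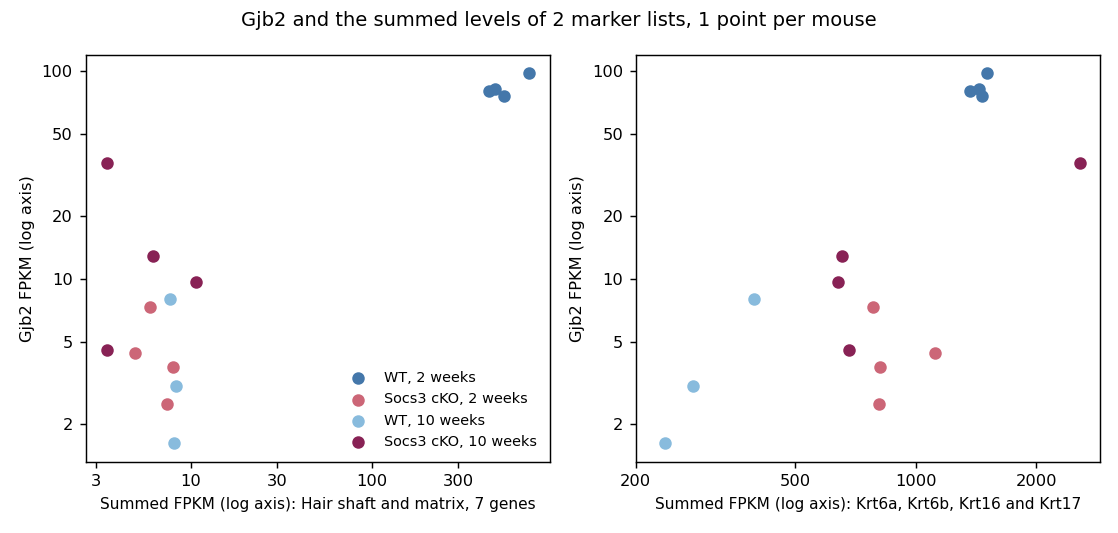
*Gjb2* FPKM (y axis, log) against the summed FPKM (x axis, log) of 7 hair shaft and matrix genes on the left and of 4 stress keratins on the right, with 1 point per mouse. The 4 WT mice at 2 weeks stand apart on the left, at 445 FPKM of hair genes or more, and on the right *Socs3* cKO replicate 3 at 10 weeks lies at 2570 FPKM of stress keratins and 36.0 FPKM of *Gjb2*.

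Other cell types that make *Gja1* were read as well. The 6 fibroblast genes summed to 12660 to 14860 FPKM in WT mice and 5107 to 7088 in *Socs3* cKO at 2 weeks, with 3 of 6 called lower and 1 higher. At 10 weeks they summed to 3858 to 6812 and 6795 to 11810, with 1 called higher. These sums, like *Gja1*, were highest in WT mice at 2 weeks and had their lowest median in WT mice at 10 weeks, but not every gene of the list did so. *Dcn* and *Lum* had their lowest mean in WT mice at 2 weeks, at 838 and 317 FPKM. *Pdgfra* had its highest mean in *Socs3* cKO at 10 weeks, at 22.6 FPKM. The 6 endothelial genes summed to 61.9 to 72.8 FPKM and 55.8 to 65.5 at 2 weeks, with 1 called higher, and to 21.6 to 24.5 and 39.9 to 59.8 at 10 weeks, with 3 called higher. Basal keratinocyte genes summed to 5401 to 5682 and 5435 to 7869 at 2 weeks, with 1 of 7 called higher. At 10 weeks they summed to 4567 to 5782 FPKM in WT mice and 6118 to 7425 in *Socs3* cKO, with 1 called higher, *Itga6* (log2(FC) 3.34). The 6 suprabasal genes summed to 6461 to 7697 in WT mice and 12250 to 14590 in *Socs3* cKO at 2 weeks, with 3 called higher beside *Gjb5*. Most of this rise in the sum was *Krtdap*, at 1474 to 1792 against 3927 to 10862 FPKM, while the keratins *Krt1* (log2(FC) -0.99) and *Krt10* (log2(FC) -0.54) were not called. At 10 weeks the suprabasal sums were 7074 to 15620 and 8827 to 13290 FPKM and overlapped between the genotypes, and the ranges of *Gjb5* overlapped too. The 6 genes of the granular layer summed to 710.5 to 985.4 and 705.2 to 1201 FPKM at 2 weeks, with 2 called higher. At 10 weeks they summed to 1035 to 1964 in WT mice and 333.9 to 552.7 in *Socs3* cKO with 1 called lower, although their median log2(FC) was 0.87. Skeletal muscle genes summed to 502.7 to 780.0 and 1234 to 2053 FPKM at 2 weeks, with 4 of 6 called higher, and to 532.5 to 942.0 and 273.4 to 501.7 at 10 weeks, with 1 called lower. Sebaceous gland genes summed to 473.9 to 505.1 FPKM in WT mice and 1658 to 2429 in *Socs3* cKO at 2 weeks, with 6 of 6 called higher, and leukocyte genes to 53.3 to 76.4 and 136.3 to 168.4 FPKM at 10 weeks, with 5 of 6 called higher. Schwann cell genes summed to 321.3 to 352.3 and 105.4 to 260.6 FPKM at 2 weeks and to 80.1 to 158.9 and 66.5 to 162.3 at 10 weeks, the age at which *Gjc3* was called. By limma 0 of 5 were called at either age, with 3 lower at an unadjusted p below 0.05 at 2 weeks and 0 at 10 weeks. The part of any of these cells in the connexin values was not tested. Of all genes tested, 7.24% were called higher and 7.19% lower at 2 weeks, and 12.5% higher and 2.43% lower at 10 weeks.

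Finally, the genes with the most similar levels were listed for each member among 9253 genes with a mean of at least 5 FPKM, by Pearson's r of log2(FPKM + 0.1) over the 15 mice. The 15 mice fall into 4 groups, so that mice of a group share their condition, and r is given as a description. *Gja1* was most like *Pgm1* (r = 0.988), *Slc39a8* (0.977) and *Sprr1a* (0.955), which encodes a precursor of the cornified envelope. *Gjb2* was most like *Slc39a6* (0.976), *Clk3* (0.962) and *Mxd1* (0.948), and *Gjb6* most like *Stfa3* (0.948), *Sprr1a* (0.912) and *Klk13* (0.909). *Gjb5* was most like *Pdzk1ip1* (0.978), *Orm2* (0.970) and *Oas1f* (0.970). *Sprr1a* was thus among the 3 nearest genes of both *Gja1* and *Gjb6*, with group means of 784 and 200 FPKM in WT mice and *Socs3* cKO at 2 weeks and of 109 and 198 at 10 weeks.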

How the data were processed

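Ear RNA of 15 mice was read from one end for 50 bases. Alignment to mm9 was done by the authors with TopHat2 (2.1.0), who deposited 1 FPKM value per gene for 21110 genes; Cufflinks is named in the submitters' processing notes, with no version or role. FPKM divide by gene length and by mapped reads, so a change in abundant genes shifts all others. The paper states more WT mice, which were not analysed here. Depth was estimated from the smallest step between values of 6583 genes with 1 transcript longer than 0.5 kb.

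FPKM are not counts, so log2(FPKM + 0.1) was fitted with limma (3.58.1, R 4.3.3), letting the prior variance follow the mean level, on genes with at least 1 FPKM in at least 3 of the mice in the fit. Each age was fitted on its own groups, and the interaction and the changes with age on all 4 groups. Tests were 2-sided. DEGs had an adjusted p below 0.01 and |log2(FC)| of at least 1, and for the interaction an adjusted p below 0.01. The step was tested on simulated data. The 95% intervals are limma's. Levels, shares and figures used Python 3.11.15 (numpy 2.4.6, pandas 2.3.3, matplotlib 3.10.9).

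Groups and replicate numbers came from the labels. All 4 members were described in every comparison. Other connexins and pannexins that passed the filter were given with levels, and with a fold change where called. Partners were counted, with values for those called. Some connexins and partners are not reported here, and counts and sums leave them out. The members and lists were chosen with earlier results of these data known. The alternatives were other pseudocounts (1 and 0.01), filters, scalings, prior variance, groups in the fit, mouse weights, a looser call rule (adjusted p below 0.05), the replicate number as a block and leaving out each mouse; removal of the trend with length and GC content was chosen after seeing the data. Same-numbered mice of the 2 genotypes did not deviate together (r between -0.057 and 0.057 at 2 weeks, and between -0.203 and 0.036 at 10 weeks), so the numbers were not taken to pair mice. Promoters were read from the mm9 genome with starts of GENCODE vM1.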

Additional observations from a re-analysis of the deposited data

Results flagged for a closer look

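In each group of 4 mice the most extreme value was set against the spread of the others for the connexins, pannexins and partners that passed the filter. Of 72 such groups 10 stood out by Dixon's test, and chance gives about 1 in 20. *Socs3* cKO replicate 1 at 2 weeks was the low mouse in 3 of them. *Src* was at 0.696 FPKM in it, against 5.26 to 5.52 in the others, *Csnk1d* at 7.21 against 30.3 to 36.8 and *Ctnnb1* at 163.0 against 219.9 to 227.4. *Nedd4* was at 156.4 FPKM in *Socs3* cKO replicate 2 at 2 weeks, against 115.5 to 121.2 in the others. In WT mice at 2 weeks, *Gje1* was at 0.398 FPKM in replicate 3 against 0.577 to 0.599, and replicate 1 had *Cav1* at 110.8 against 133.5 to 135.9 and *Csnk1d* at 48.7 against 51.5 to 51.9. At 10 weeks *Socs3* cKO replicate 4 had *Tjp1* at 9.59 FPKM against 13.8 to 14.4 and *Cnst* at 5.50 against 10.9 to 11.8. *Gjd3* was at 0.192 FPKM in *Socs3* cKO replicate 1 at 10 weeks against 0.794 to 0.953, on an estimated 2 reads against 11 to 12. None of the 4 members was among them.

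The genotype effect differed between the ages for 13 of these 24 genes by the interaction term (limma, adjusted p below 0.01), where 18.5% of all genes tested were called higher and 7.05% lower and their median was 0.55. Higher at 10 than at 2 weeks, on the log2 scale, were the effects on *Gjb2* (6.06), *Gjb6* (3.65), *Cdh1* (3.43), *Gja3* (3.38), *Gja1* (2.65), *Gjc1* (2.23), *Nedd4* (1.58), *Prkca* (1.39), *Tjp1* (1.38), *Ctnnb1* (1.10) and *Ctnna1* (1.09). Lower were those on *Gjb5* (-1.87) and *Panx3* (-1.39). The effect on *Gja3* could be called only as higher, since this gene reached 1 FPKM in WT mice at 2 weeks alone. Hair follicle genes differed in the same comparison, with all 7 hair shaft and all 6 inner root sheath genes called, and their part in these values was not tested. *Krt31*, *Krt34*, *Krt81*, *Krt83* and *Krt86* passed the filter through the WT mice at 2 weeks alone, so that they could be called only as higher.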

How the results depend on the processing

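The 4 members were refitted under all alternatives, and 562 of 575 values, the number of members called included, were kept. A fold change was kept if it held its direction and side of the threshold. The number of members called was kept if it changed little, so that the loss of 1 of 4 counted as kept. None reversed. *Gjb6* at 2 weeks kept a log2(FC) of -1.85 with all 4 groups in one fit but had an adjusted p of 0.014. *Gja1* at 10 weeks was no longer called without the expression filter (1.19, adjusted p = 0.016), with median-of-ratios scaling (0.93), with quantile normalization (0.99) or with the length and GC trend taken out (0.62), so that under each of these 0 of 4 members were called at 10 weeks. Leaving out each mouse moved it from 0.99 to 1.40 and the number of members called from 0 to 1. The interaction of *Gjb6* was 3.12 (adjusted p = 0.015) with quantile normalization and 3.07 to 4.6 with each mouse left out, with an adjusted p of 0.014 without WT replicate 3 at 10 weeks. The cause of these changes was not tested. A further 77 fold changes of other connexins, pannexins and partners are not printed and were left out of this count after their values had been seen, and 32 of them had another sign under at least 1 alternative.

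The median log2(FC) of all genes tested was -0.21 at 2 weeks, 0.31 at 10 weeks and -0.44 with age in WT mice, and scaling between mice takes such a shift out. The number of genes called over all settings was 751 to 6479 at 2 weeks, 745 to 4931 at 10 weeks, 1994 to 8531 for the interaction, 2205 to 7077 with age in WT mice and 146 to 1406 with age in *Socs3* cKO. The share called higher was 50.2% (34.6% to 58.3%), 83.7% (54.3% to 87.2%), 72.4% (42.0% to 75.4%) and 24.2% (20.5% to 50.0%) in the first 4 of these. With the replicate number as a block, 751 genes were called at 2 weeks against 1951, and all 4 members were still called; at 10 weeks *Gja1* was 1.26 (adjusted p = 0.0078). The block changed no other call of a member. For *Gjb6* in WT mice at 10 weeks the depth, at an estimated 9 and 14 reads in replicates 2 and 3, limits the values.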
